A study of Mus musculus with 20 samples.

Results

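The subunit genes of the oxidative phosphorylation system were followed in endothelial cells taken from mouse tumours. They were chosen by symbol, as the protein-coding genes named Ndufa, Ndufb, Ndufc, Ndufs or Ndufv with a number, Sdha to Sdhd, Uqcr, Cox4 to Cox8 and Atp5, together with the protein-coding genes of the mitochondrial genome (mt-Nd, mt-Co, mt-Cytb and mt-Atp), and without assembly factors. The rule gave 97 genes of the 46983 gene identifiers in the tables, of which 21560 were protein-coding. Of these, 84 lie in the nucleus and 13 in the mitochondrial genome. A further 10 matching symbols were processed pseudogenes and were left out.

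Tumours of E0771, a mouse mammary carcinoma line, were raised by orthotopic injection into the mammary fat of mice on the C57BL/6J background, and were collected at 500 mm3. CD31+ cells were enriched on beads, sorted, and profiled by RNA-seq in 20 bulk libraries after MATQ amplification, a multiple-annealing method for small RNA inputs. The labels give hosts described as CD4+ T cell deficient in 3 backgrounds, which were CD4KO (3 libraries), TCRKO (3) and Tie2Cre;H2Ab fl/fl (4, titled Tie2Cre_H2Abf), and hosts described as CD4+ T cell competent in the other 3, which were CD8KO (3), Tie2Cre (3) and WT (4). In Tie2Cre;H2Ab fl/fl hosts a class II major histocompatibility gene is floxed, and Tie2Cre, which the Tie2Cre hosts carry as well, is active in endothelial and in blood cells. The labels give no age or sex of the hosts and do not say whether libraries came from separate animals, so p-values measure the spread between these libraries, which may be partly technical.

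Oxidative phosphorylation is carried out in the inner mitochondrial membrane by complexes I to V. Complexes I and II pass electrons from NADH and succinate to ubiquinone, complex III passes them to cytochrome c, and complex IV, cytochrome c oxidase, passes them to oxygen. The protons pumped on the way drive complex V, the ATP synthase. Complexes I, III, IV and V are built from nuclear and mitochondrial gene products, whereas complex II, succinate dehydrogenase, is encoded by the nucleus alone. Endothelial cells are known for making much of their ATP by glycolysis. By complex, the nuclear genes numbered 37 for complex I, 4 for complex II, 8 for complex III, 18 for complex IV and 17 for complex V. Complexes were assigned by gene name, so that Ndufa4 and Ndufa4l2, whose products are now placed with complex IV, count under complex I; counted under complex IV they would give 35 and 20 genes. The mitochondrial genome supplied 7 genes of complex I, 1 of complex III, 3 of complex IV and 2 of complex V.

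Total counts per library lay between 1543847 and 11478902, and protein-coding genes took 12.8 to 81.0% of them. In 2 libraries, WT_9771 and Tie2Cre_9501, the predicted genes Gm10800 and Gm10801, which hold satellite repeat sequence, held 36.8 and 15.6% of the counts, and the main sums, shares and medians below are also given without these libraries. The nuclear genes had between 436 counts, in WT_9771, and 27059 counts, in CD8KO_9752, and 3 counts, taken as the detection floor, were worth 0.128 to 2.46 CPM. CPM are counts scaled to library size, here with TMM factors, and compare 1 gene between libraries, whereas TPM, as deposited, are also scaled to transcript length and compare genes with each other. Intervals and floors of this kind cover counting error only, since reads without molecular identifiers are not independent molecules. Pecam1, which encodes CD31, averaged 706 to 1113 CPM over the 6 backgrounds. H2-Ab1 averaged 3.15 ± 2.68 CPM in Tie2Cre_H2Abf libraries (SD, n = 4) and 60.5 ± 35.4 CPM in Tie2Cre libraries (SD, n = 3). Cd8a RNA held 338 to 914 counts in each of the libraries labelled CD8KO and 3 counts in all WT libraries together, while Cd8b1 had 0 counts in both. Cd4 averaged 9.16 ± 5.92 CPM in the libraries labelled CD4KO (SD, n = 3) and 6.87 ± 6.78 CPM in WT libraries (SD, n = 4). The position of the deleted sequence in each knockout was not given, so these RNA levels cannot check the CD4KO and CD8KO labels, and the groups are called by their labels.

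A gene was tested where its counts passed a filter on low values, which left 87 of the 97 genes, 75 nuclear and 12 mitochondrial, among 14875 genes tested in all. The 10 that were not tested were low or absent throughout: mt-Nd4l, Ndufa4l2, Cox4i2, Cox6a2, Cox6b2, Cox7a1, Cox7b2, Cox8b, Cox8c and Atp5s. By TPM, the nuclear genes ran from subunits close to the detection floor to a few at about 100 TPM. The highest were Cox4i1, a nuclear subunit of complex IV, and Atp5b, the catalytic beta subunit of ATP synthase, each at 120 TPM as the mean of the 6 group means. Cox5b and Cox6a1 of complex IV followed at 98.9 and 83.4 TPM, and Uqcrh, the hinge protein of complex III, at 84.3 TPM. As the median over the 20 libraries, the measure used for the mitochondrial genes below, these genes were lower. Atp5b then stood at 86.2 TPM, Cox4i1 at 76.8, Cox5b at 71.7, Uqcrh at 68.1 and Cox6a1 at 63.8. The lowest of the tested genes were Ndufc1 (5.50 TPM), Ndufa13 (4.69 TPM), Ndufa11 (3.35 TPM) and Ndufb4 (2.96 TPM) of complex I and Sdhd, a membrane anchor of complex II, at 2.60 TPM. Over the tested nuclear genes, the median TPM across libraries had its middle value at 15.2 for complex I, 10.8 for complex II, 24.2 for complex III, 31.0 for complex IV and 27.5 for complex V. Within complex II the median TPM of single subunits ran between 1.69 and 22.9.

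Several subunits exist as a broadly expressed form and a form typical of muscle, lung, testis or oxygen-poor tissue, and the counts were almost all on the broadly expressed form. Cox4i1 held 4837 counts over the 20 libraries and Cox4i2, the form known from lung and low oxygen, 22 counts in 8 libraries. Cox6a1 held 2199 counts and Cox6a2, the heart and skeletal muscle form, 5. Cox6b1 held 950 counts and the testis form Cox6b2 1. Cox7a2 held 878 counts and Cox7a2l, a factor of respiratory supercomplexes, 3891, against 3 for the muscle form Cox7a1. Cox8a held 1964 counts, Cox8b 1 and Cox8c 0. Ndufa4 held 573 counts and its hypoxia-induced relative Ndufa4l2 11 counts in 4 libraries. Markers of striated muscle summed to at most 3.40 CPM in any library, with Mb at 0 in every library, markers of adipocytes to at most 24.6 CPM and markers of erythroid cells to at most 9.26 CPM. The genes Atp5g1, Atp5g2 and Atp5g3 encode the same mature c subunit of ATP synthase. Of these, Atp5g1 (1690 counts) and Atp5g3 (1316 counts) held far more counts than Atp5g2 (205 counts). In TPM, Atp5g1 and Atp5g3 averaged 60.7 and 39.0 in CD4KO libraries, 60.6 and 25.9 in TCRKO libraries, 25.5 and 16.3 in Tie2Cre_H2Abf libraries, 83.5 and 86.0 in CD8KO libraries, 44.8 and 28.1 in Tie2Cre libraries and 34.5 and 12.0 in WT libraries. These TPM set the 2 genes side by side within a background and do not compare backgrounds. The nuclear TPM summed to 11884 in CD8KO_9752, against 1252 in CD8KO_9751 and 2149 in CD8KO_9753. In CPM, Atp5g1 averaged 10.1 ± 4.94 in CD8KO libraries (SD, n = 3) and 11.8 ± 5.75 in WT libraries (SD, n = 4).

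The mitochondrial genes were far above the nuclear ones and spanned a wide range among themselves. As the median TPM over the 20 libraries, mt-Co1, the catalytic core of complex IV, stood highest at 3500. It was followed by mt-Atp6 (935 TPM), mt-Cytb (887 TPM), mt-Co3 (678 TPM) and mt-Atp8 (505 TPM). The complex I genes mt-Nd1 (345 TPM), mt-Nd2 (220 TPM), mt-Nd4 (215 TPM) and mt-Nd5 (166 TPM) lay lower, with mt-Co2 at 202 TPM among them. mt-Nd6, the sole member on the minus strand of the reference, stood at 21.6 TPM, and mt-Nd3 and mt-Nd4l were listed at 0 in most libraries. mt-Atp8 is short, with an effective length of 4.94 to 52.4 bases in the deposited tables, so its TPM rests on few counts. mt-Co1 alone held 45.0 to 80.3% of the counts of the mitochondrial genes in a library, and sums over these genes therefore largely follow mt-Co1.

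Part of this order depends on how reads were divided between near-identical sequences. On chromosome 1, 7 pseudogenes, which are copies of mitochondrial DNA and lie side by side on the minus strand at chr1:24611535-24616197 (GRCm38), held 97104 counts over the 20 libraries, between 4.38 and 17.6% of the counts on the mitochondrial genes and their copies together in a library. A window of 120 bases from each of 3 pairs is shown, since the differences between gene and copy are what an aligner has to place a read by. Capitals mark bases that differ within the pair, and sequences are given 5′ to 3′ on the strand of the gene from the GRCm38 reference.
mt-Co3, chrM:8667-8786, plus strand: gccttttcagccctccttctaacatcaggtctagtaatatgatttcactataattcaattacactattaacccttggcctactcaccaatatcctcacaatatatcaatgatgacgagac
Gm28437, chr1:24613792-24613911, minus strand: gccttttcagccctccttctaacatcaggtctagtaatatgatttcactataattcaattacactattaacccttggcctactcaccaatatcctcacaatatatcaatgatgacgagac
mt-Nd3, chrM:9459-9578, plus strand: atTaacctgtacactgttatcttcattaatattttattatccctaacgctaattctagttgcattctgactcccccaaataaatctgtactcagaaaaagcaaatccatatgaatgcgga
Gm28438, chr1:24613000-24613119, minus strand: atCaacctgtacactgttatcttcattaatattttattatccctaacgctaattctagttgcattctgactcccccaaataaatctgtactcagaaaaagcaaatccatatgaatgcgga
mt-Co1, chrM:6381-6500, plus strand: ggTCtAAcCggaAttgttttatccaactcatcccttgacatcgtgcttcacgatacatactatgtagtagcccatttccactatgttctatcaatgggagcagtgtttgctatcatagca
Gm29216, chr1:24616078-24616197, minus strand: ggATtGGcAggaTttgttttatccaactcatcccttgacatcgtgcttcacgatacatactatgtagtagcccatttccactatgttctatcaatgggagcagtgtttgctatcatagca
mt-Co3 and its copy Gm28437 were identical over 783 of 783 bases, so no read within them can be assigned by sequence.

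Of the counts of this pair, 36603 were on mt-Co3 and 57027 on Gm28437, or 60.9% on the copy. By library the share on the copy ran between 9.14 and 100%, and mt-Co3 itself was listed at 0 in WT_9748 and WT_9771. On the gene alone the SD of log2(CPM + 1) over the 20 libraries was 2.60, and on the sum of gene and copy it was 1.00. mt-Co2 and Gm28661, identical over 681 of 681 bases, showed the same division, with 9803 counts on the gene, 11070 on the copy, a share on the copy of 0.135 to 100%, and an SD of 2.08 for the gene and 0.963 for the sum. mt-Nd4l and Gm10222, identical over 294 bases, had 26 and 1609 counts, and mt-Nd4l was at 0 in 19 libraries. mt-Nd3 and Gm28438 differed at 1 of 345 bases and had 60 and 264 counts. The copies of mt-Atp6 (678 identical bases, 7.06% of counts on the copy) and of mt-Nd4 (876 identical bases, 0.992%) took little. Gm29216 matches 492 bases of mt-Co1 with 6 differences, all within the first 13 bases of the window shown, and held 4.58% of the counts of that pair. Levels of mt-Co2, mt-Co3, mt-Nd3 and mt-Nd4l are therefore uncertain on their own and are given with their copies added where they matter.

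**Figure D1:**
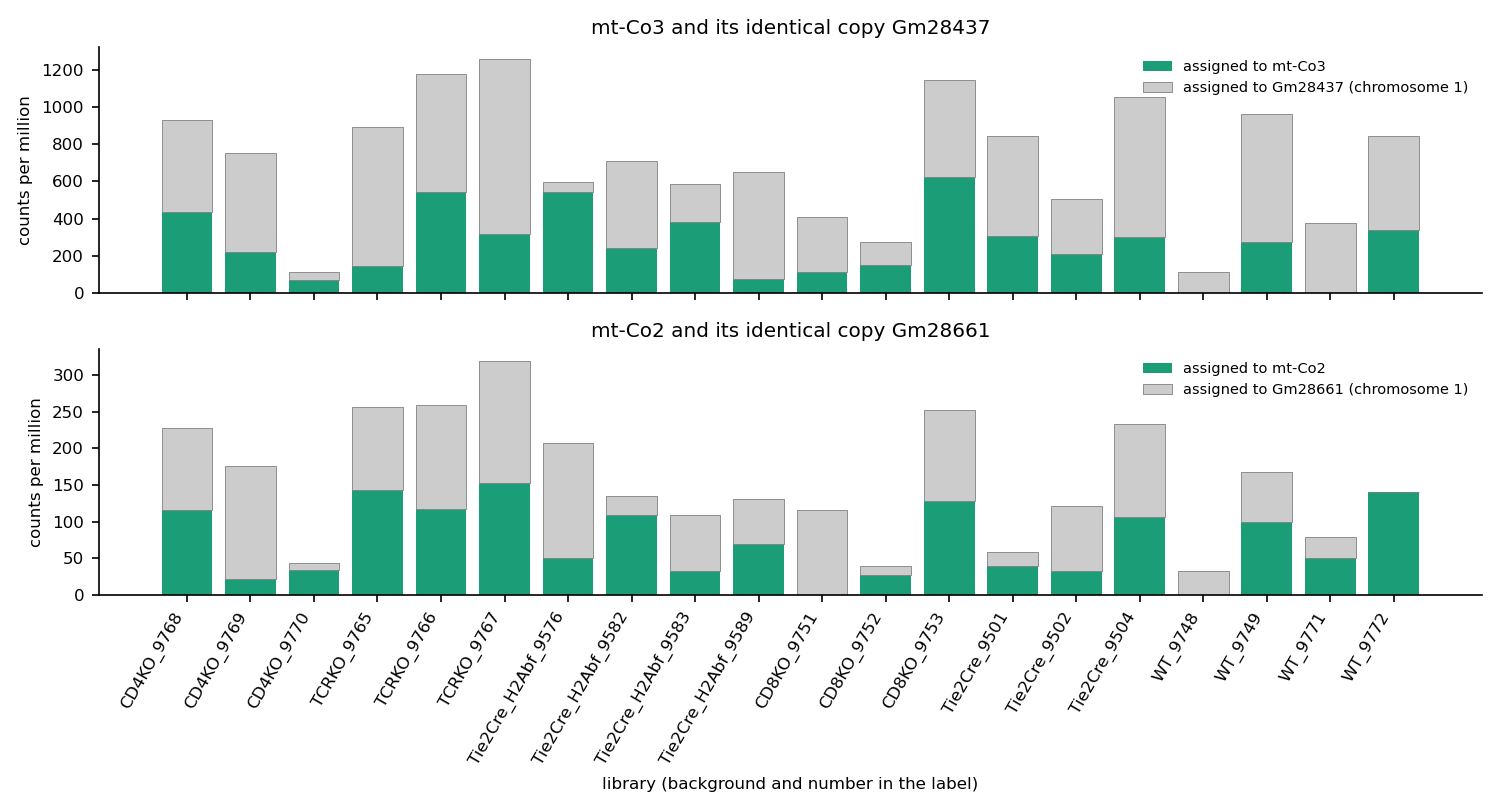
CPM of mt-Co3 (upper panel) and mt-Co2 (lower panel), in each of the 20 libraries by background, stacked with the CPM of the identical chromosome 1 pseudogenes Gm28437 and Gm28661. The division between gene and copy differs between libraries, with 9.14 to 100% of the pair's counts on Gm28437, while the stacked heights vary less.

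Summed over the nuclear genes, TCRKO libraries stood highest and WT libraries lowest, with wide overlap between backgrounds. The sum was 832 ± 279 CPM in CD4KO libraries (SD, n = 3), 988 ± 152 CPM in TCRKO libraries (n = 3), 632 ± 96.7 CPM in Tie2Cre_H2Abf libraries (n = 4), 898 ± 308 CPM in CD8KO libraries (n = 3), 781 ± 246 CPM in Tie2Cre libraries (n = 3) and 602 ± 261 CPM in WT libraries (n = 4). The WT libraries were spread between 358 CPM, in the satellite-rich WT_9771, and 929 CPM, in WT_9772, a range that takes in all 4 Tie2Cre_H2Abf libraries and 1 of the 3 TCRKO libraries (TCRKO_9765). As a share of protein-coding counts, which does not depend on the scaling between libraries, the nuclear genes took 0.438 ± 0.0716% in TCRKO libraries and 0.223 ± 0.153% in WT libraries, and 0.250 ± 0.0537% in Tie2Cre_H2Abf libraries and 0.318 ± 0.131% in Tie2Cre libraries. The WT mean of this share takes in WT_9771 at 0.0423%, against 0.168 to 0.400% in the other WT libraries. In WT_9771 protein-coding genes took 51.2% of the counts, and Gm10800 and Gm10801 36.8%. Without the satellite-rich libraries the nuclear sum was 859 CPM in Tie2Cre libraries (n = 2) and 683 ± 250 CPM in WT libraries (SD, n = 3), and the share was 0.371% in Tie2Cre libraries and 0.284 ± 0.116% in WT libraries.

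Summed over the mitochondrial genes, TCRKO libraries again stood highest and lay close together. The sum was 4378 ± 2170 CPM in CD4KO libraries (SD, n = 3), 7297 ± 258 CPM in TCRKO libraries (n = 3), 5802 ± 392 CPM in Tie2Cre_H2Abf libraries (n = 4), 5277 ± 2334 CPM in CD8KO libraries (n = 3), 5577 ± 1231 CPM in Tie2Cre libraries (n = 3) and 4819 ± 2805 CPM in WT libraries (n = 4). WT libraries ran between 1933 CPM, in WT_9748, and 7839 CPM, in WT_9749, and enclosed the value of every other library. The ratio of mitochondrial to nuclear counts, formed within a library, was 5.29 ± 2.61 in CD4KO libraries, 7.50 ± 1.13 in TCRKO libraries, 9.35 ± 1.63 in Tie2Cre_H2Abf libraries, 6.48 ± 3.29 in CD8KO libraries, 7.26 ± 0.628 in Tie2Cre libraries and 7.81 ± 2.86 in WT libraries. The lowest ratio, 2.73, was that of CD8KO_9752, a library with 81.0% of its counts on protein-coding genes and 1.88 mitochondrial rRNA counts per mitochondrial mRNA count, the lowest of the 20 libraries, where the range was 1.88 to 8.56. In all 6 comparisons the ratios of the groups overlapped. With the chromosome 1 copies added to the mitochondrial side the group means of the ratio were 6.03, 8.81, 10.3 and 7.24 in CD4KO, TCRKO, Tie2Cre_H2Abf and CD8KO libraries, 8.24 in Tie2Cre libraries and 8.84 in WT libraries. Without the satellite-rich libraries the mitochondrial sum was 5925 CPM in Tie2Cre libraries and 5426 ± 3098 CPM in WT libraries, and the ratio was 6.999 in Tie2Cre libraries and 7.61 ± 3.47 in WT libraries. With the copies added it was then 7.94 in Tie2Cre libraries and 8.45 in WT libraries.

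**Figure D2:**
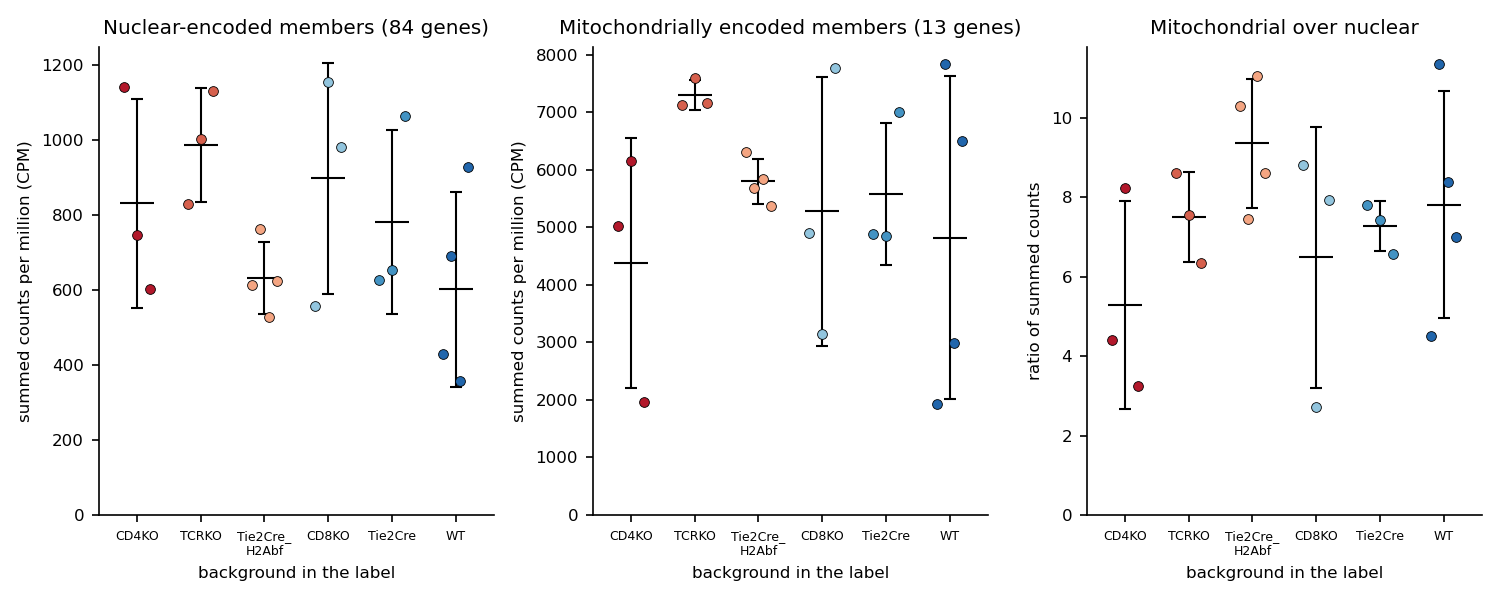
Summed CPM of the 84 nuclear genes, summed CPM of the 13 mitochondrial genes, and the ratio of mitochondrial to nuclear counts, for each library (points) by background, with group mean ± SD (bars). WT libraries span 358 to 929 CPM on the nuclear side and 1933 to 7839 CPM on the mitochondrial side, and every other group overlaps them in each panel.

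Between CD4-deficient and CD4-competent hosts, the division the study's design text makes, none of the tested oxidative phosphorylation genes passed the threshold. At a Benjamini-Hochberg adjusted p of 0.05, edgeR's quasi-likelihood test passed 0 of 87, against 0% of all genes tested. At p under 0.05 before adjustment there were also 0, against 7.27% of all genes, 1.9% higher and 5.37% lower. DESeq2 and limma-voom passed 0 of 87 after adjustment, where they passed 4 and 7 of all 14875 genes. Before adjustment they had 3 and 2 of the 87 under 0.05, against 1400 and 971 of all genes. The nuclear genes had a median log2 fold change of 0.20, with 50 of 75 positive, and the mitochondrial genes one of 0.17, with 9 of 12 positive. Over all 14875 genes the median was -0.11 and 42.9% were positive. The summed nuclear level was 799 ± 224 CPM in CD4-deficient hosts and 745 ± 273 CPM in CD4-competent hosts, and the mitochondrial sum was 5823 ± 1591 CPM in CD4-deficient hosts and 5184 ± 2070 CPM in CD4-competent hosts (SD, n = 10 each). The mitochondrial to nuclear ratio was 7.58 ± 2.42 in CD4-deficient hosts and 7.25 ± 2.35 in CD4-competent hosts. The smallest p among the genes averaging 10 CPM or more was that of Cox6a1, the broadly expressed form of a small nuclear subunit of complex IV, at 20.3 ± 15.1 CPM in CD4-deficient hosts and 12.0 ± 6.66 CPM in CD4-competent hosts (SD, n = 10 each; log2 fold change 0.75, SE 0.41, edgeR adjusted p = 0.748). Sdhc, a membrane anchor of complex II, followed at 36.6 ± 13.6 CPM in CD4-deficient hosts and 23.5 ± 14.4 CPM in CD4-competent hosts (0.63, SE 0.37), with Cox5b (0.56), Cox8a (0.47) and Uqcrh (0.40) after it. On the lower side Atp5c1, the gamma subunit of ATP synthase, averaged 25.0 ± 5.79 CPM in CD4-deficient hosts and 31.2 ± 16.2 CPM in CD4-competent hosts (-0.33, SE 0.32, edgeR adjusted p = 0.885), and Cox7a2l (-0.35), Sdha (-0.41) and Ndufb8 (-0.22) were also among the genes with the smallest p. Without the 2 satellite-rich libraries the medians were 0.15 for the nuclear and 0.18 for the mitochondrial genes, beside 0.04 for all genes. The CD4-competent hosts then had a nuclear sum of 808 ± 261 CPM, above that of the CD4-deficient hosts by less than the SD. Their mitochondrial sum was 5495 ± 2169 CPM and their ratio 7.04 ± 2.62 (SD, n = 8). By limma-voom on all libraries the nuclear median was 0.13, beside 0.06 for all genes. In bulk libraries, fewer cells of a type and less RNA per cell cannot be told apart in this or any of the following comparisons.

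The libraries of the Tie2Cre_H2Abf and Tie2Cre backgrounds carry numbers in a lower range (Tie2Cre_9501 to Tie2Cre_H2Abf_9589) and those of the other 4 in a higher range (WT_9748 to WT_9772). The sources used here do not say what the ranges stand for. Within the lower range the contrast of CD4 status is the same as Tie2Cre_H2Abf against Tie2Cre. The nuclear median was -0.48 within the lower range and 0.60 within the higher range. The mitochondrial median was -0.26 within the lower range and 0.44 within the higher range, beside medians of all genes of -0.06 and -0.02. The difference between the ranges, tested as an interaction in edgeR, passed the threshold for 0 of the 87 genes, while 4 had p under 0.05 before adjustment, as did 1235 of all genes. These were Uqcrb, a ubiquinone-binding subunit of complex III (-2.58, SE 1.12, edgeR adjusted p = 0.556), Ndufa7 of complex I (-2.68), Cox6a1 (-1.71) and mt-Atp6 (-1.44), where the value is the log2 fold change in the lower range minus that in the higher range. With the number range as a term in the model, the medians were 0.17 for the nuclear and 0.17 for the mitochondrial genes, beside -0.09 for all genes. In sums, the nuclear level within the higher range was 910 CPM in CD4-deficient hosts and 729 CPM in CD4-competent hosts, and within the lower range 632 CPM in CD4-deficient hosts and 781 CPM in CD4-competent hosts.

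The TCRKO libraries had higher levels of most nuclear oxidative phosphorylation genes than WT libraries, although no single gene passed the test. The median log2 fold change of the nuclear genes was 0.88, with 66 of 75 positive, and that of the mitochondrial genes was 0.37, with 11 of 12 positive, while the median of all genes was -0.20 and 43.1% of them were positive. edgeR passed 0 of 87 at an adjusted p of 0.05, against 0.0269% of all genes. DESeq2 and limma-voom also passed 0, where they passed 173 and 4 of all 14875 genes. Before adjustment 10 genes had p under 0.05, each of them higher in TCRKO libraries, against 8.65% of all genes, of which 3.99% were higher and 4.66% lower. DESeq2 had 12 of the 87 under 0.05, against 1727 of all 14875 genes, and limma-voom 9, against 1253. The 10 genes by edgeR were Cox6a1, Cox5b, Cox4i1 and Cox7a2 of complex IV, Atp5d, Atp5h and Atp5o of complex V, Uqcr11 and Uqcrh of complex III, and Ndufs4 of complex I. The comparisons of CD4KO, CD8KO and Tie2Cre with WT share the same 4 WT libraries, so their values stand side by side here and are not independent of each other. Values with ± are the mean and SD over the libraries of a background, 4 for WT and Tie2Cre_H2Abf and 3 for the others, and values with an SE are log2 fold changes.

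Cox6a1 had 17.5, 28.9 and 50.9 CPM in TCRKO libraries, against 3.81, 8.28, 6.57 and 11.7 CPM in WT libraries. The lowest TCRKO library lay above the highest WT library, and the log2 fold change was 2.08 (SE 0.66, edgeR unadjusted p = 0.00425, adjusted p = 0.421). Cox4i1 had 41.3, 49.9 and 49.8 CPM in TCRKO libraries, against 3.81, 23.4, 10.7 and 39.2 CPM in WT libraries. The groups did not overlap, but WT_9772 came within a few CPM of the TCRKO libraries, and the change was 1.27 (SE 0.60, edgeR adjusted p = 0.573). Cox5b had 14.8, 15.4 and 33.0 CPM in TCRKO libraries, against 1.16, 9.77, 4.10 and 11.0 CPM in WT libraries, again with no overlap (1.67, SE 0.77, edgeR adjusted p = 0.566). Uqcr11, a small accessory subunit of complex III, had 4.68, 6.06 and 11.8 CPM in TCRKO libraries, against 0.993, 1.70, 2.46 and 1.70 CPM in WT libraries, and the WT values rest on 3 to 9 counts each. The groups did not overlap, and edgeR gave an unadjusted p of 0.0288 and an adjusted p of 0.559.

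Atp5d, the delta subunit of the catalytic head of ATP synthase, had 12.7, 24.6 and 23.6 CPM in TCRKO libraries, against 1.99, 6.16, 0.821 and 15.1 CPM in WT libraries. WT_9772 overlapped the TCRKO libraries here, and the log2 fold change was 1.69 (SE 0.68, edgeR adjusted p = 0.545). Atp5h, a subunit of the stalk, had 20.1, 21.4 and 29.3 CPM in TCRKO libraries, against 3.64, 17.0, 4.10 and 13.4 CPM in WT libraries, without overlap (1.28, SE 0.60, edgeR adjusted p = 0.573). The catalytic subunits of the same complex had smaller differences. Atp5b averaged 116 ± 21.8 CPM in TCRKO libraries and 76.8 ± 47.9 CPM in WT libraries (0.59, SE 0.50), and Atp5a1, the alpha subunit, had 56.5, 39.7 and 38.6 CPM in TCRKO libraries, against 42.0, 32.1, 14.0 and 49.8 CPM in WT libraries (0.37, SE 0.42). For both of these the libraries of the groups overlapped.

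**Figure D3:**
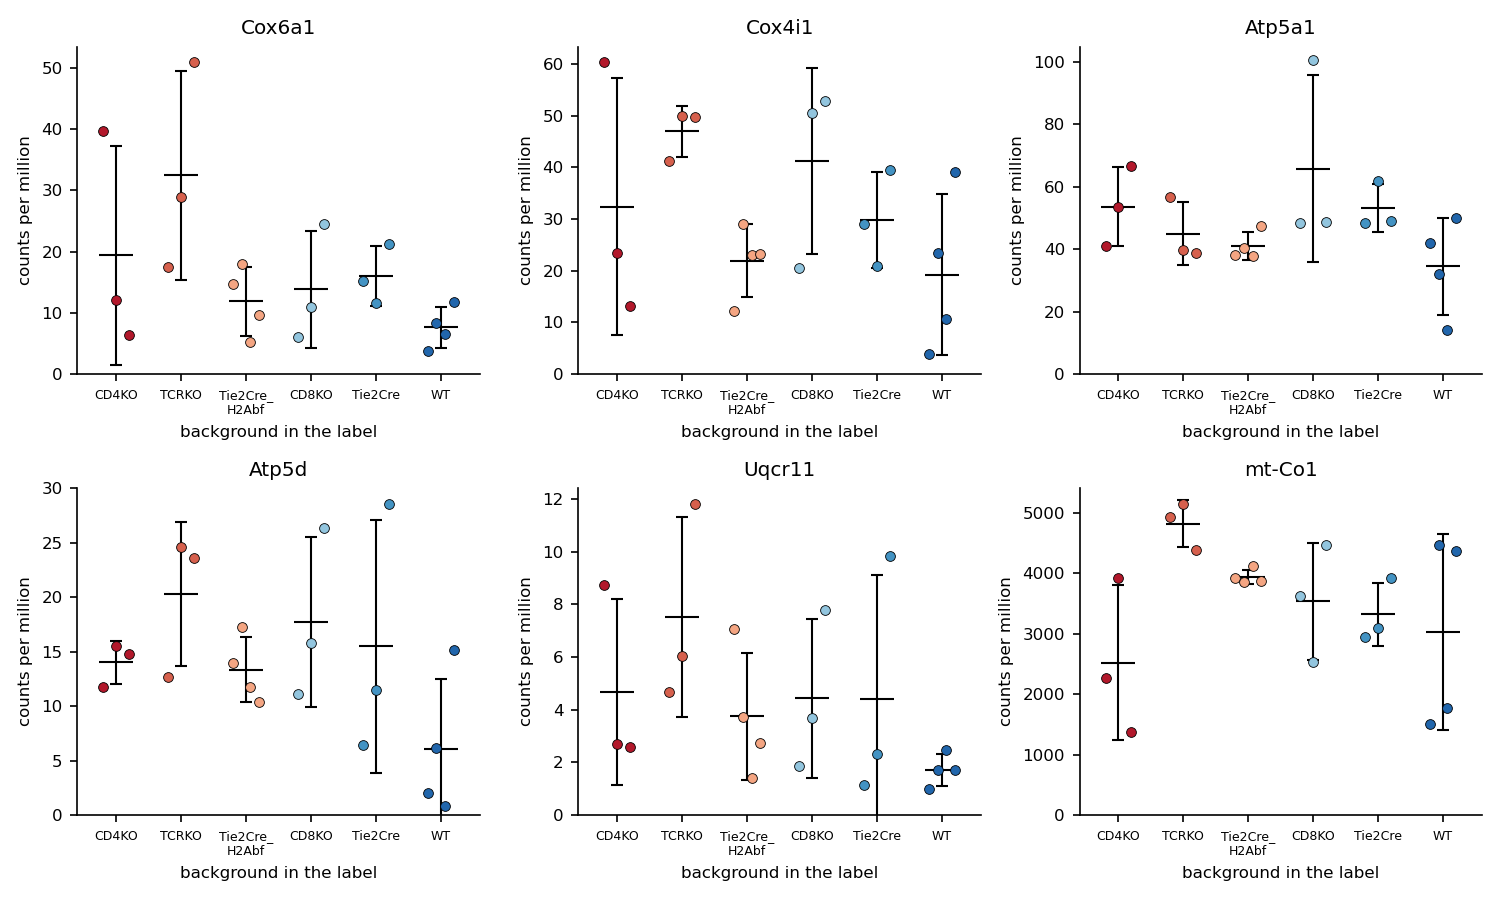
CPM of Cox6a1, Cox4i1, Atp5a1, Atp5d, Uqcr11 and mt-Co1 in each library (points) by background, with group mean ± SD (bars). TCRKO libraries lie above every WT library for Cox6a1 (17.5 to 50.9 against 3.81 to 11.7 CPM), Cox4i1 and Uqcr11, and overlap them for Atp5a1, Atp5d and mt-Co1, the last counted without its chromosome 1 copy.

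Every TCRKO library lay above every WT library for 21 of the 75 tested nuclear genes, against 5.57% of all genes, and below for 0, against 2.1%. The 21 were Ndufa1, Ndufa6, Ndufa11, Ndufa12, Ndufc2 and Ndufs4 of complex I, Uqcr11, Uqcrb, Uqcrh and Uqcrq of complex III, Cox4i1, Cox5b, Cox6a1, Cox7a2 and Cox7b of complex IV, and Atp5e, Atp5h, Atp5k, Atp5l, Atp5mpl and Atp5o of complex V. Several had low WT values, where 3 counts are worth 0.497 to 2.46 CPM. Among them Ndufa6 had 1.85 to 2.96 CPM in TCRKO libraries, against 0 to 1.70 CPM in WT libraries, and Atp5k 1.85 to 2.85 against 0 to 1.06 CPM. Atp5mpl had 3.33 to 8.41 against 0.166 to 1.70 CPM, and Atp5e 2.96 to 5.68 against 0.821 to 2.08 CPM. Without the satellite-rich libraries, which leaves 3 WT libraries, 25 nuclear genes lay above and 1 below, against 8.68 and 5.30% of all genes. By complex, the median log2 fold change of the nuclear genes was 0.72 for complex I (32 of 36 positive), -0.15 for complex II (1 of 4), 1.31 for complex III (7 of 8), 1.16 for complex IV (10 of 11) and 1.14 for complex V (16 of 16). With Ndufa4 counted under complex IV, complex I had 0.72 (31 of 35) and complex IV 1.05 (11 of 12). Complex II had Sdha at 12.0 ± 3.34 CPM in TCRKO libraries and 12.6 ± 12.2 CPM in WT libraries, and Sdhb, its iron-sulfur subunit, at 15.4 ± 5.98 CPM in TCRKO libraries and 17.5 ± 8.61 CPM in WT libraries. In summed CPM, complex IV stood at 197 ± 57.9 in TCRKO libraries and 85.8 ± 51.1 in WT libraries, complex V at 333 ± 27.4 in TCRKO libraries and 207 ± 98.3 in WT libraries, and complex II at 76.5 ± 14.6 in TCRKO libraries and 55.9 ± 34.6 in WT libraries. Without WT_9771 the WT sums were 91.4 ± 61.1 for complex IV, 245 ± 74.9 for complex V and 70.4 ± 23.1 for complex II. The complex II sum is carried by Sdhc, at 47.9 ± 9.41 CPM in TCRKO libraries and 22.3 ± 21.3 CPM in WT libraries (1.08, SE 0.65), the sole positive change of that complex. Among genes averaging 10 CPM or more, the lower values with the smallest p included those of Sdhb (-0.20), Ndufs3 (-0.20), Uqcrc1 (-0.09) and Sdha (-0.09).

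Counted on the genes alone, the mitochondrial genes showed no such separation. TCRKO and WT libraries overlapped for each of the 12 tested. mt-Co1 had 4929, 5146 and 4389 CPM in TCRKO libraries, against 1501, 4475, 1763 and 4370 CPM in WT libraries, so that 2 WT libraries lay near the TCRKO libraries and the other 2 far below (log2 fold change 0.67, SE 0.36, edgeR adjusted p = 0.592). With its copy Gm29216 added, mt-Co1 had 5135, 5534 and 4765 CPM in TCRKO libraries, against 1523, 4572, 1867 and 4505 CPM in WT libraries. The groups then did not overlap. mt-Cytb, the mitochondrial core of complex III, averaged 693 ± 45.4 CPM in TCRKO libraries and 668 ± 486 CPM in WT libraries, a change of 0.05 (SE 0.57). With the chromosome 1 copies added, mt-Co2 averaged 278 CPM in TCRKO libraries and 105 CPM in WT libraries (1.40, SE 0.58, edgeR adjusted p = 0.549), where the gene alone gave 0.91 with an SE of 1.36. Every TCRKO library then lay above every WT library for mt-Co2, at 256 to 319 CPM against 33.1 to 168 CPM. mt-Co3 with its copy averaged 1109 ± 191 CPM in TCRKO libraries and 574 ± 398 CPM in WT libraries (0.95, SE 0.57), where the gene alone gave 1.12 with an SE of 1.46. For mt-Co3 and the remaining pairs of gene and copy the groups overlapped. The difference in the log2 mitochondrial to nuclear ratio was 0.01. The mitochondrial median depended on single WT libraries and was 0.03 without WT_9748 and 0.91 without WT_9749, while the nuclear median was 0.62 without WT_9748 and 1.23 without WT_9772.

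Endothelial markers summed to 2570 to 3927 CPM in TCRKO libraries and 2317 to 5048 CPM in WT libraries, with 12 of 12 markers detected in both groups. Macrophage markers summed to 286 to 682 CPM in TCRKO libraries and 221 to 683 CPM in WT libraries, and markers of tumour epithelium to 5.54 to 18.2 CPM in TCRKO libraries, with Krt19, Krt18, Epcam and Krt14 at 0, and 0.212 to 11.5 CPM in WT libraries, with Krt19, Epcam, Krt14 and Cldn3 at 0. The part of these cells in the result was not tested. Transcript length moved with the change: the tested nuclear genes had a median effective length of 403 bases, against 2189 for all genes tested, and over the 75 nuclear genes Spearman's rho between length and log2 fold change was -0.49, against -0.20 over all genes. This is a description across genes, which share libraries and are not independent, and the part of length in the result was not tested. Across the other comparisons the same rho over the nuclear genes was -0.44 for CD4 status, -0.51 for CD4KO, -0.05 for CD8KO and -0.41 for Tie2Cre against WT, and 0.34 for Tie2Cre_H2Abf against Tie2Cre.

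**Figure D4:**
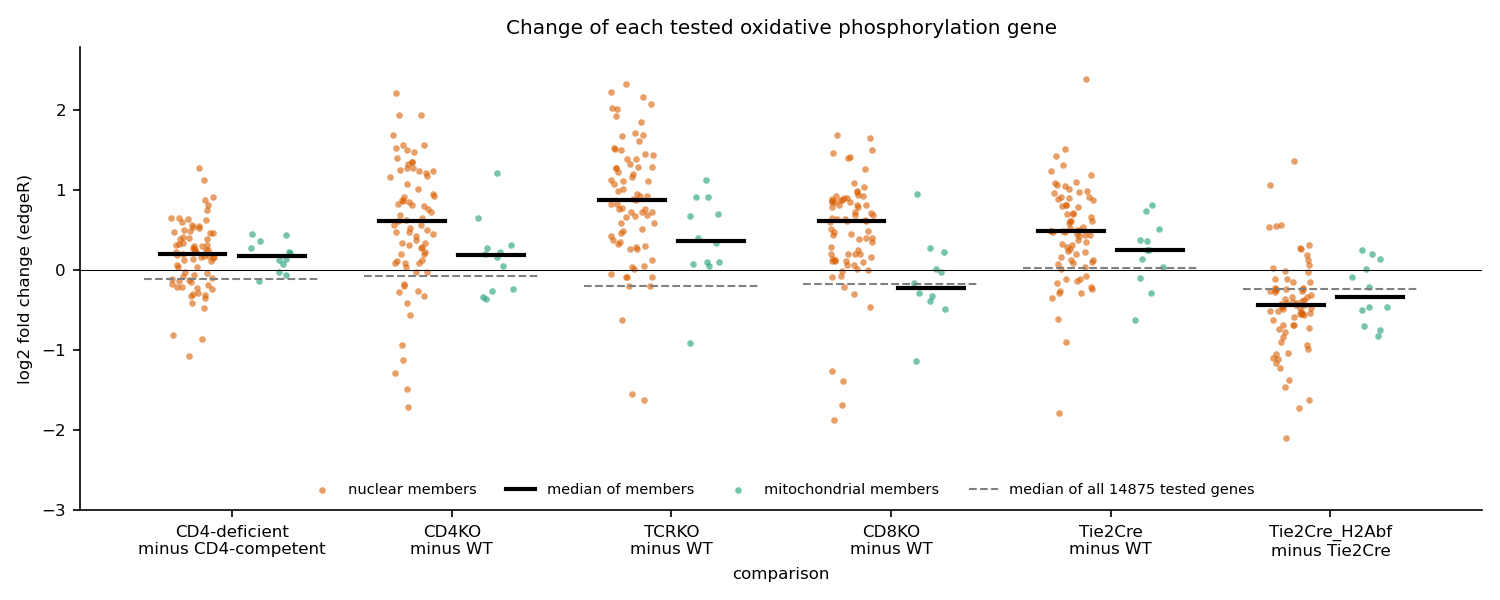
Log2 fold change (edgeR) of each tested nuclear and mitochondrial gene in the 6 comparisons, with the median of each set (black bars) and of all 14875 tested genes (dashed). The nuclear median is 0.88 for TCRKO minus WT and -0.43 for Tie2Cre_H2Abf minus Tie2Cre, and mt-Nd3 is left out for CD8KO minus WT because it had 0 counts in CD8KO libraries.

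The libraries labelled CD4KO had a nuclear median of 0.62 and a mitochondrial median of 0.19 against WT, beside -0.08 for all genes, of which 46.8% were positive. By limma-voom, which weights the libraries, these medians were 0.23 and 0.008, beside 0.05 for all genes. edgeR, DESeq2 and limma-voom passed 0 of 87 genes after adjustment. Of all genes edgeR passed 0%, DESeq2 95 of 14875 and limma-voom 0. Before adjustment edgeR had 3 genes under 0.05, each higher, against 8.58% of all genes (4.03% higher and 4.55% lower). DESeq2 had 5, against 1627 of all genes, and limma-voom 0, against 773. The 3 by edgeR were Atp5o, which links the stalk to the head of ATP synthase, Cox7a2 and Ndufs4. Atp5o had 21.8, 10.5 and 7.99 CPM in CD4KO libraries, against 3.15, 4.67, 2.46 and 8.14 CPM in WT libraries (1.50, SE 0.66, edgeR adjusted p = 0.573). Its highest value was that of CD4KO_9768, and without that library the nuclear median was 0.13 and the mitochondrial median -0.17. Atp5a1 averaged 53.6 ± 12.7 CPM in CD4KO libraries and 34.5 ± 15.5 CPM in WT libraries (0.63, SE 0.42), while Ndufa10, an accessory subunit of complex I, averaged 8.50 ± 4.17 CPM in CD4KO libraries and 18.6 ± 8.81 CPM in WT libraries (-1.12, SE 0.63, edgeR adjusted p = 0.611). Cox6a1 (1.33), Cox5b (1.25) and Atp5d (1.16) were the other genes on the higher side by the smallest p, and mt-Cytb (-0.36) and mt-Co1 (-0.27) were among those on the lower side. Every CD4KO library lay above every WT library for 1 gene, Uqcr11, against 2.73% of all genes, and below for 0, against 1.19%. Macrophage markers summed to 434 to 688 CPM in CD4KO libraries and 221 to 683 CPM in WT libraries, and their part was not tested. CD4KO_9770 had the lowest mitochondrial sum of the group at 1959 CPM, and the ratio difference on the log2 scale was -0.60. Without the 2 satellite-rich libraries, the nuclear and mitochondrial medians were 0.66 and 0.17 for CD4KO, 0.89 and 0.46 for TCRKO, 0.48 and -0.05 for CD8KO and 0.52 and 0.35 for Tie2Cre against WT, and -0.60 and -0.33 for Tie2Cre_H2Abf against Tie2Cre. The medians of all genes were then 0.11, 0.13, 0.02 and 0.02 against WT, in the same order, and 0 for Tie2Cre_H2Abf against Tie2Cre.

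The libraries labelled CD8KO had a nuclear median of 0.61, with 65 of 75 genes positive, and a mitochondrial median of -0.23, with 4 of 12 positive, against WT. The median of all genes was -0.18, and 43.4% were positive. By limma-voom the nuclear median was 0.37 and the mitochondrial median -0.47, beside 0.04 for all genes. After adjustment edgeR, DESeq2 and limma-voom passed 0 of 87. Of all genes edgeR passed 0%, DESeq2 81 of 14875 and limma-voom 1. Before adjustment edgeR had 3 genes under 0.05, each higher, against 10.5% of all genes (2.57% higher and 7.97% lower). DESeq2 had 5, against 1601 of all genes, and limma-voom 1, against 960. The 3 by edgeR belong to the ATP synthase: Atp5o (1.69, SE 0.66), Atp5d (1.50, SE 0.68) and Atp5a1 (0.92, SE 0.42), each with an edgeR adjusted p of 0.465. Atp5a1 had 48.4, 100.4 and 48.5 CPM in CD8KO libraries, against 42.0, 32.1, 14.0 and 49.8 CPM in WT libraries, so the high mean came from CD8KO_9752. Cox4i1 averaged 41.2 CPM in CD8KO libraries and 19.3 CPM in WT libraries (1.09, SE 0.60). Every CD8KO library lay above every WT library for 1 gene, Atp5e, against 3.69% of all genes, and below for 0, against 1.47%. On the mitochondrial side mt-Cytb had 472, 101 and 966 CPM in CD8KO libraries, against 194, 1336, 477 and 666 CPM in WT libraries (-0.38, SE 0.57, edgeR adjusted p = 0.886). Without CD8KO_9752 the nuclear median was 0.49, the mitochondrial median 0.32 and the ratio difference 0.18, where all 3 libraries gave -0.36 for the last. Nuclear and mitochondrial medians had opposite signs with that library and the same sign without it. The mitochondrial median was also above 0 without CD8KO_9751 (0.04), WT_9749 (0.27) or WT_9772 (0.06). Macrophage markers summed to 232 to 339 CPM in CD8KO libraries and 221 to 683 CPM in WT libraries, and T cell markers, most of it Cd8a, to 48.6 to 71.0 CPM in CD8KO libraries and 0.946 to 21.3 CPM in WT libraries; their part was not tested.

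Tie2Cre libraries against WT had a nuclear median of 0.48, with 61 of 75 positive, and a mitochondrial median of 0.25, with 9 of 12 positive, beside 0.02 and 50.8% for all genes. After adjustment edgeR, DESeq2 and limma-voom passed 0 of 87. Of all genes edgeR passed 0%, DESeq2 76 of 14875 and limma-voom 0. Before adjustment DESeq2 had 3 genes under 0.05, against 1407 of all genes, and limma-voom 0, against 596. edgeR had 1 gene under 0.05, against 6.85% of all genes (3.97% higher and 2.88% lower). The 1 gene was Atp5e, the epsilon subunit of ATP synthase, with 15.9, 1.22 and 7.05 CPM in Tie2Cre libraries, against 1.66, 1.27, 0.821 and 2.08 CPM in WT libraries (2.39, SE 0.96, edgeR adjusted p = 0.676). The high value is that of the satellite-rich Tie2Cre_9501, where 3 counts are worth 1.13 CPM. Every Tie2Cre library lay above every WT library for 1 gene, Ndufa8, at 17.6 ± 1.92 CPM in Tie2Cre libraries and 8.91 ± 5.63 CPM in WT libraries (0.96, SE 0.63), against 2.86% of all genes, and below for 0, against 1.34%. Atp5d (1.31), Atp5o (1.09), Cox6a1 (1.07) and Atp5a1 (0.61) were the other genes on the higher side by the smallest p, and Uqcrc1, a core subunit of complex III, led the lower side at 16.9 ± 12.1 CPM in Tie2Cre libraries and 26.0 ± 14.6 CPM in WT libraries (-0.62, SE 0.59, edgeR adjusted p = 0.905). The nuclear median without Tie2Cre_9504 was 0.003. Macrophage markers summed to 183 to 282 CPM in Tie2Cre libraries and 221 to 683 CPM in WT libraries, with 2 of 12 positive and a median log2 fold change of -1.04. Fibroblast markers summed to 26.4 to 85.8 CPM in Tie2Cre libraries and 0.425 to 43.5 CPM in WT libraries, where Fap was at 0, with 5 of 9 tested positive and a median of 1.57. Their part in the result was not tested. This comparison crosses the library number ranges, so background and number range cannot be told apart.

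Tie2Cre_H2Abf libraries were lower than Tie2Cre libraries in most oxidative phosphorylation genes, again without a gene past the threshold. The nuclear median was -0.43, with 12 of 75 positive, and the mitochondrial median -0.34, with 4 of 12 positive, while the median of all genes was -0.24 and 41.6% were positive. edgeR called 0 of 87, against 0.0202% of all genes. DESeq2 and limma-voom called 0, where they called 54 and 8 of all 14875 genes. Before adjustment DESeq2 had 5 genes under 0.05, against 1332 of all genes, and limma-voom 0, against 1006. edgeR had 1 gene under 0.05, against 8.54% of all genes (2.69% higher and 5.86% lower). It was Ndufb2 of complex I, with 1.59, 3.39, 1.42 and 1.01 CPM in Tie2Cre_H2Abf libraries, against 15.9, 5.97 and 2.52 CPM in Tie2Cre libraries (-2.11, SE 1.01, edgeR adjusted p = 0.576). The highest of these values, 15.9 CPM, was again that of Tie2Cre_9501. Counted without the chromosome 1 copies, 6 of the 75 nuclear and 3 of the 12 mitochondrial genes were lower in every Tie2Cre_H2Abf library, against 3.76% of all genes. Higher in every one were 0, against 5.28%. Without Tie2Cre_9501, which leaves 2 Tie2Cre libraries, the lower genes were 10 nuclear and 3 mitochondrial, against 7.61% of all genes.

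The 6 nuclear genes were Ndufa5, Ndufa7, Ndufa8, Uqcrb, Atp5a1 and Atp5f1. Atp5a1 had 38.2, 40.5, 37.7 and 47.3 CPM in Tie2Cre_H2Abf libraries, against 48.4, 61.9 and 49.1 CPM in Tie2Cre libraries, a narrow gap with a log2 fold change of -0.38 (SE 0.42). Ndufa8 averaged 10.6 ± 2.42 CPM in Tie2Cre_H2Abf libraries and 17.6 ± 1.92 CPM in Tie2Cre libraries (-0.73, SE 0.63). Of the other genes with the smallest p on the lower side, Ndufs7, an iron-sulfur subunit of complex I, averaged 9.37 ± 1.80 CPM in Tie2Cre_H2Abf libraries and 19.4 ± 10.1 CPM in Tie2Cre libraries (-1.05, SE 0.65, edgeR adjusted p = 0.655). The 3 mitochondrial genes were mt-Nd2, mt-Nd4 and mt-Atp6. mt-Nd4 had 167, 130.4, 137 and 134 CPM in Tie2Cre_H2Abf libraries, against 194, 183 and 340.2 CPM in Tie2Cre libraries (-0.75, SE 0.49, edgeR adjusted p = 0.675). mt-Atp6, part of the proton channel of ATP synthase, had 264, 211, 202 and 203 CPM in Tie2Cre_H2Abf libraries, against 284, 279 and 609 CPM in Tie2Cre libraries (-0.83, SE 0.56, edgeR adjusted p = 0.687). With its copy Gm10925 added, mt-Atp6 had 292, 222, 216 and 203 CPM in Tie2Cre_H2Abf libraries, against 284, 279 and 629 CPM in Tie2Cre libraries. The groups then overlapped for mt-Atp6, while mt-Nd4 with its copy still did not overlap (130 to 169 against 183 to 345 CPM). The Tie2Cre_H2Abf libraries lay close together, and Tie2Cre_9504 was the highest Tie2Cre library for both genes. mt-Co1 did not share this order, with 3919, 3853, 4117 and 3870 CPM in Tie2Cre_H2Abf libraries, against 2946, 3099 and 3913 CPM in Tie2Cre libraries (0.25, SE 0.37, edgeR adjusted p = 0.875). Uqcrc1 (0.56), Sdhc (0.55) and Atp5b (0.26) were also on the higher side.

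The mitochondrial to nuclear ratio was higher in Tie2Cre_H2Abf libraries by 0.35 on the log2 scale, and by 0.02 when mt-Co1 was left out of the sum. The medians rested on Tie2Cre_9504: without it the nuclear median was 0.03 and the mitochondrial median 0.23, beside -0.27 for all genes. By complex, the nuclear medians were -0.51 for complex I (7 of 36 positive), 0.20 for complex II (2 of 4), -0.33 for complex III (1 of 8), -0.52 for complex IV (0 of 11) and -0.45 for complex V (2 of 16), or -0.48 for complex I and -0.53 for complex IV with Ndufa4 counted under complex IV. Endothelial markers summed to 4873 to 7730 CPM in Tie2Cre_H2Abf libraries and 3110 to 6310 CPM in Tie2Cre libraries, fibroblast markers to 9.38 to 24.4 CPM in Tie2Cre_H2Abf libraries and 26.4 to 85.8 CPM in Tie2Cre libraries, and mural markers to 8.83 to 14.6 CPM in Tie2Cre_H2Abf libraries and 25.0 to 61.6 CPM in Tie2Cre libraries. The last 2 lists did not overlap between the groups, and their part in the result was not tested.

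**Figure D5:**
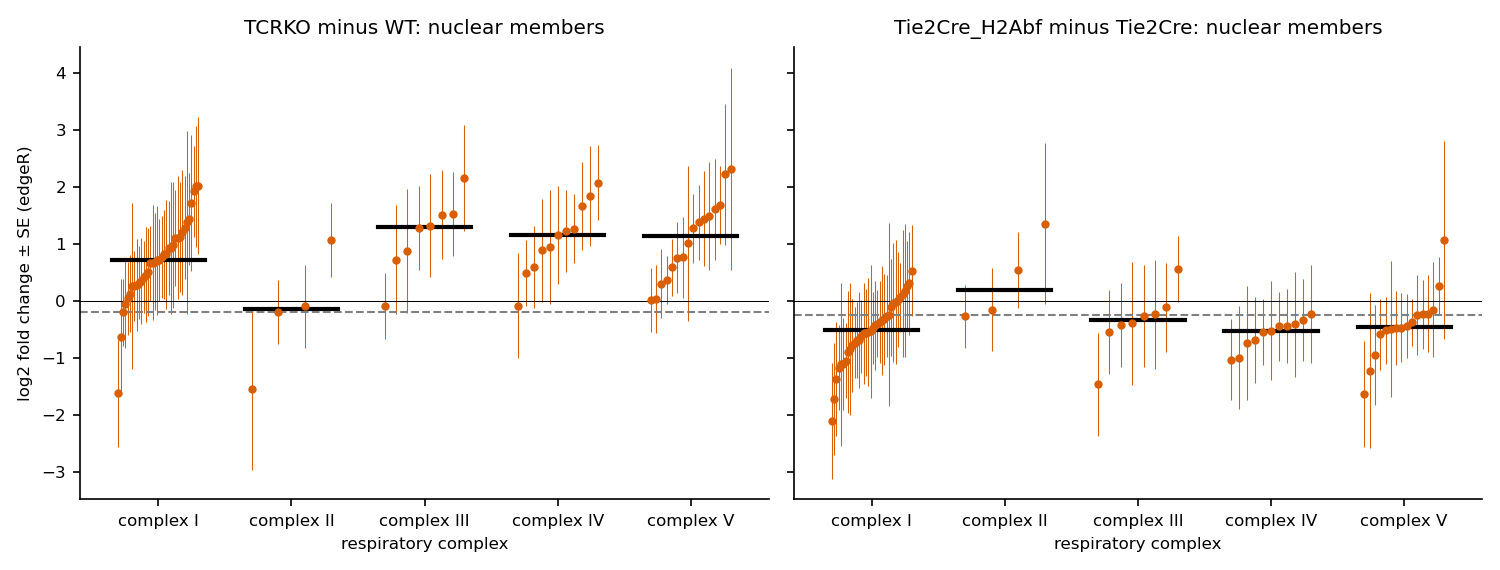
Log2 fold change ± SE (edgeR) of each tested nuclear gene by complex, for TCRKO minus WT (left) and Tie2Cre_H2Abf minus Tie2Cre (right), with complex medians (black bars) and the median of all tested genes (dashed). Complex II medians are -0.15 and 0.20, while complexes I, III, IV and V have medians of 0.72 to 1.31 on the left and -0.52 to -0.33 on the right.

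Ordered by group mean CPM over the 6 backgrounds, TCRKO libraries were highest for 39 of the 75 nuclear genes, or 52.0%, where 14.7% of all tested genes had their highest mean in TCRKO. WT libraries were lowest for 33, or 44.0%, against 16.8% of all genes, and Tie2Cre_H2Abf libraries for 26, or 34.7%, against 12.2%. Tie2Cre_H2Abf libraries were highest for 0, against 9.89% of all genes. Without the satellite-rich libraries the counts were 39 highest in TCRKO, 31 lowest in Tie2Cre_H2Abf and 24 lowest in WT. The shares of all genes were then 19.2, 10.9 and 19.5%. Of the 12 tested mitochondrial genes, TCRKO libraries were highest for 7, against 14.7% of all genes, and CD8KO libraries lowest for 6, against 15.3%. Without the satellite-rich libraries Tie2Cre was highest for 5 of the 12, against 19.3% of all genes, and TCRKO for 4, against 19.2%. The order was not tested, and neighbours in it mostly overlapped.

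The genes around the respiratory chain were read from lists on the same samples, and none of their genes passed the threshold in any of the 6 comparisons. Cytosolic ribosomal protein genes, which like the nuclear subunit genes are short, had a median of 1.43 in TCRKO against WT, with 74 of 76 positive and 53 higher at an unadjusted p under 0.05, a share that was 3.99% over all genes. Against the same WT libraries the median was 0.89 for CD4KO (71 of 76 positive), 0.84 for CD8KO (73 of 76) and 0.72 for Tie2Cre (73 of 76). Rpl41 averaged 162 CPM in TCRKO libraries and 23.1 CPM in WT libraries (2.80, SE 0.66, edgeR adjusted p = 0.185). Their median was -0.54 in Tie2Cre_H2Abf against Tie2Cre, with 5 of 76 positive. Mitochondrial ribosomal protein genes, which translate the mitochondrial mRNAs, had a median of 0.56 in TCRKO against WT, with 55 of 75 positive. Assembly factors of the complexes had a median of 0.56 (27 of 40 positive), genes of mitochondrial transcription, replication and RNA one of 0.47 (14 of 26), and carriers and other genes of the chain one of 0.37 (14 of 24). Enzymes of the tricarboxylic acid cycle, which feed the chain, had 10 of 20 positive and a median near 0, and Idh3b, a subunit of NAD-dependent isocitrate dehydrogenase, averaged 14.8 CPM in TCRKO libraries and 35.5 CPM in WT libraries (-1.27, SE 0.54, edgeR adjusted p = 0.559). Against the same WT libraries Idh3b was also lower in Tie2Cre libraries, at 8.82 CPM (-2.01, SE 0.56, edgeR adjusted p = 0.491), and in CD4KO libraries, at 20.7 CPM (-0.78, SE 0.53). For CD8KO it was not among the 3 genes of this list with the smallest p.

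Of the regulators of mitochondrial genes, Pprc1, a coactivator of the PGC-1 family, averaged 38.0 CPM in TCRKO libraries and 12.0 CPM in WT libraries (1.62, SE 0.55, edgeR adjusted p = 0.469), while the list as a whole had 4 of 10 positive and a median of -0.18. Pprc1 was likewise higher than in WT libraries in CD4KO libraries, at 49.7 CPM (2.02, SE 0.55, edgeR adjusted p = 0.573), and in CD8KO libraries, at 38.4 CPM (1.64, SE 0.55, edgeR adjusted p = 0.465). Of the genes switched by oxygen, 7 of 8 were positive in TCRKO against WT with a median of 0.92, against 4 of 8 for CD4KO (-0.00087), 5 of 8 for CD8KO (0.32) and 2 of 8 for Tie2Cre (-0.41). Vegfa averaged 9.73 CPM in TCRKO libraries and 0.247 CPM in WT libraries (edgeR adjusted p = 0.403). That WT mean lies below the floor of 3 counts, worth 0.497 to 2.46 CPM in WT libraries, so the size of the difference is not known. Vegfa was also higher in CD4KO (3.41 CPM) and CD8KO libraries (0.558 CPM) than in WT libraries (edgeR adjusted p = 0.573 and 0.781). It averaged 1.91 CPM in Tie2Cre_H2Abf and 0.126 CPM in Tie2Cre libraries (0.576), and 4.71 CPM in CD4-deficient and 0.304 CPM in CD4-competent hosts (0.375). The lower means are again near or below the floor. Pgk1, a glycolytic enzyme, averaged 54.6 CPM in TCRKO libraries and 19.9 CPM in WT libraries (1.45, SE 0.51, edgeR adjusted p = 0.506). Against the same WT libraries Pgk1 was also higher in CD8KO libraries, at 44.8 CPM (1.17, SE 0.50, edgeR adjusted p = 0.465). In Tie2Cre_H2Abf against Tie2Cre the oxygen-switched list had 7 of 8 positive and a median of 0.57, and the list of mitochondrial transcription, replication and RNA had 11 of 26 positive and a median of -0.76. Ssbp1, the single-stranded DNA-binding protein of the mitochondrial genome, averaged 1.12 CPM in Tie2Cre_H2Abf libraries and 11.7 CPM in Tie2Cre libraries (-3.34, SE 1.10, edgeR adjusted p = 0.576).

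Promoters of nuclear subunit genes are known for sites of NRF1 and of ETS factors such as GABP. In windows of 300 bases, 250 before and 50 after the start in RefSeq (GRCm38.p6), 66 of the 84 nuclear genes had an entry. The NRF1 letters, GCGCA and GCGC with any base between them, on either strand, were present in 16 of the 66, or 24.2%, against 1293 of 27025 genes, or 4.78%. The ETS letters CCGGAAG were present in 15, or 22.7%, against 9.12% of all genes, and both in 4, or 6.06%, against 0.932%. Of these 4, the 2 with the highest TPM are printed, with the motif letters in capitals, to show how the matches sit near the start.
Cox6a1, chr5:115348909-115349208, minus strand: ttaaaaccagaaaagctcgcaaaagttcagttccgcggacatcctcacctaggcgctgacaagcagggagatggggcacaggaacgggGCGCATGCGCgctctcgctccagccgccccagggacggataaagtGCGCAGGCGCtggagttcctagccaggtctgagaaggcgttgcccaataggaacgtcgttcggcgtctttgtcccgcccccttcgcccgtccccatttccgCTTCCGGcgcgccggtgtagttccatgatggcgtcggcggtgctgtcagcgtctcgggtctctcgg
Atp5h, chr11:115419870-115420169, minus strand: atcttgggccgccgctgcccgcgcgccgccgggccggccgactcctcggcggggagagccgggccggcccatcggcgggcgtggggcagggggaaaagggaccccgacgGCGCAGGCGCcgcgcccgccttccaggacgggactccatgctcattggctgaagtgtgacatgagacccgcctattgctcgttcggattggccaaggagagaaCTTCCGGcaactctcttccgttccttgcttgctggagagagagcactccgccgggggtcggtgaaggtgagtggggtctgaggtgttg
The Cox6a1 window held 2 NRF1 matches and 1 ETS match, and the Atp5h window 1 of each. A match describes these letters and no binding was measured.

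Counts of some nuclear genes could also be divided with near copies or neighbours. Ndufb4 and the pseudogene Ndufb4c were identical over 390 bases and had 165 and 52 counts, and Atp5g1, Atp5h and Ndufa12 had 1690, 2293 and 612 counts, against 58, 51 and 39 on their pseudogenes. Cox4i1 and Emc8 overlap on opposite strands and had 4837 and 825 counts, as did Atp5f1 and Wdr77 with 2040 and 1085 counts and Ndufb5 and Mrpl47 with 1429 and 446 counts. The library kit does not mark strand, so reads in these overlaps cannot be told apart.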

How the data were processed

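Bulk RNA-seq of sorted CD31+ cells gave 20 libraries. Per the submitters' processing notes, reads were handled with bcl2fastq 2.17, STAR, RSEM 1.2.28 and DESeq2 on GRCm38; no source used here names the release of the annotation. The deposited tables hold, per gene and per the file headers, RSEM expected counts, TPM and effective length. Of the deposited expected counts 4.45% were not whole (tolerance 1e-06), and they were rounded. Symbols and biotypes came from GENCODE M21 on GRCm38 and matched 46488 of 46983 identifiers; the 495 without held 0.00685 to 0.0899% of counts. The members, lists and tests were chosen with earlier results of these data known.

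Genes passing filterByExpr were fitted with edgeR 4.0.16 in R 4.3.3 (quasi-likelihood, TMM, Benjamini-Hochberg over 14875 genes, threshold 0.05), with 6 groups for the comparisons of backgrounds and 2 groups for CD4 status; the common biological coefficient of variation was 0.995 and 1.08. CPM used TMM-scaled library sizes, and log2 values of CPM a pseudocount of 1. Sums, ratios and medians are descriptions without a test. Alternatives were DESeq2 1.42.0, limma 3.58.1 (voom with sample weights), other scaling, no filter, fits of only the compared groups, the number range as a term, the satellite-rich libraries or each library left out, and other forms of the ratio. Number ranges apart, copies added, mt-Co1 left out, Ndufa4 moved to complex IV and sums without the satellite-rich libraries were chosen after seeing the data. Named genes were the isoform families, the 5 highest and 5 lowest by TPM, per comparison the 5 with the smallest p in each direction at a mean of at least 10 CPM, and the 3 with the smallest p of a context list; the values of 1 gene named by this rule are not reported here. Genes named for an unadjusted p or for groups that did not overlap were chosen after their values were seen. Near copies were sequences of at least 95% identity over at least 150 bases. The fits were run on simulated counts with known changes, and how many were recovered is not given here. A count of 0 genes past the threshold therefore does not show that levels were equal.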

Additional observations from a re-analysis of the deposited data

Results flagged for a closer look

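Values were checked for a library far from the rest of its group in 136 cases, and 9, or 6.62%, were picked out, where chance gives about 1 in 20. Of these, 7 came from the CD4KO libraries among the 10 CD4-deficient ones. CD4KO_9770 had the lowest mitochondrial sum, 1959 CPM, against 5022 CPM in the nearest library, the lowest mt-Cytb, 145 CPM against 539.9 CPM, and the highest Sdha, 24.9 CPM against 14.0 CPM. CD4KO_9768 had the lowest share of mt-Co1 among mitochondrial counts, 45.0% against 61.2%, the highest Ndufa8, 33.6 CPM against 14.5 CPM, and the highest Ndufs3, 29.7 CPM against 14.1 CPM. CD4KO_9769 had the highest Uqcrc1, 60.8 CPM against 33.1 CPM. Of the 4 Tie2Cre_H2Abf libraries, Tie2Cre_H2Abf_9576 had the highest mt-Atp6, 264 CPM against 211 CPM. Of the 4 WT libraries, WT_9749 had the highest number of mitochondrial rRNA counts per mitochondrial mRNA count, 8.56 against 4.95.

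A signal also lay outside the genes compared: the 7 chromosome 1 copies of mitochondrial genes held 97104 counts over the 20 libraries.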

How the results depend on the processing

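No paired analysis was possible because each library number is used once. Of 384 alternative values for 24 results, 379 counted as kept and 5 as moved. For medians and ratio differences, kept means a change smaller than the pooled SD between libraries. A change of sign can therefore count as kept. The other 99 values were numbers of oxidative phosphorylation genes past the threshold, which were compared directly and were 0 in all 99. For CD4 status the nuclear median was -0.48 within the lower number range. For Tie2Cre_H2Abf minus Tie2Cre, the nuclear median was 0.031 and the mitochondrial median 0.23 without Tie2Cre_9504, and the difference in log2 ratio was 0.032 with the mean log2 CPM and 0.022 without mt-Co1. The cause was not tested.

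Leaving out each library in turn gave nuclear medians of 0.05 to 0.33 for CD4 status, 0.13 to 0.94 for CD4KO, 0.62 to 1.23 for TCRKO, 0.33 to 0.93 for CD8KO and 0.003 to 0.82 for Tie2Cre against WT, and -0.61 to 0.031 for Tie2Cre_H2Abf against Tie2Cre. The mitochondrial medians in the same order were 0.06 to 0.29, -0.17 to 0.65, 0.03 to 0.91, -0.98 to 0.32, -0.08 to 0.72 and -0.49 to 0.23. Their sign turned without CD4KO_9768 or WT_9748 for CD4KO, without CD8KO_9751, CD8KO_9752, WT_9749 or WT_9772 for CD8KO, and without WT_9748 or Tie2Cre_9504 for Tie2Cre against WT. The differences in log2 ratio were -0.08 to 0.20, -0.97 to -0.30, -0.23 to 0.21, -0.67 to 0.18, -0.27 to 0.18 and 0.27 to 0.46. With RLE factors the median of all genes was -0.32 for TCRKO against WT and -0.43 for Tie2Cre_H2Abf against Tie2Cre. Mitochondrial medians moved by over 1.5 times with no filter to 0.31 for CD4 status, 0.32 for CD4KO, -0.006 for CD8KO and -0.13 for Tie2Cre_H2Abf against Tie2Cre, with RLE factors or DESeq2 to 0.11 for CD4 status, -0.38 for CD8KO and -0.52 for Tie2Cre_H2Abf against Tie2Cre, and with limma-voom to 0.37 for Tie2Cre against WT and -0.13 for Tie2Cre_H2Abf against Tie2Cre. Levels below the floor of 3 counts, worth 0.128 to 2.46 CPM by library, were not detectable.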
